A study of Mus musculus with 6 samples.

Results

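Epithelial to mesenchymal transition (EMT) is the switch by which cells give up epithelial adhesion and take on a mesenchymal, motile form. The data here cover 10 genes of that switch, taken by their symbols: the transcription factors Snai1, Snai2, Twist1, Twist2, Zeb1 and Zeb2, the cadherins Cdh1 and Cdh2, the intermediate filament gene Vim and the epithelial adhesion gene Epcam. Each name matched 1 of the 54532 gene rows of the deposited count matrix. They were measured by RNA sequencing in 6 tumours that cells of the mouse glioblastoma line G422 formed under the skin of Kunming mice, an outbred stock. In 3 tumours the cells stably carried a lentiviral construct labelled shNgb, against neuroglobin, and in 3 they carried its vector control, labelled shVec; none was treated otherwise. One sentence of the design text names Ngb itself as what was introduced, and the sample labels were followed. The design text calls the tumours independent; the source of all 6 is given as G422, while the cell line field carries a different number in each sample (G422 to G427), which is not explained, and whether the carrying cells were 1 clone or a pool, and the age and sex of the mice, are not stated, so each p-value speaks of the spread among these tumours.

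SNAIL, TWIST and ZEB proteins bind E-boxes, the DNA motif CANNTG, and SNAIL and ZEB factors repress epithelial genes such as Cdh1 through the forms CAGGTG and CACCTG. In the textbook course of EMT, E-cadherin (Cdh1) and Epcam go down while N-cadherin (Cdh2) and vimentin (Vim) go up. Glial cells normally hold little E-cadherin, and in gliomas the same factors are studied for motility and stem-like traits.

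Promoter letters bear on this list because its factors read E-boxes. RefSeq promoters (build GRCm38.p6, 250 bases before to 50 after a gene's start) were present for 6 of the 10 genes, and Snai2, Zeb1, Cdh1 and Cdh2 had none in the table. CAGGTG and CACCTG are each other's reverse complement, so 1 search covers both strands, and both are among the CANNTG matches. Epcam held 2 copies of this pair, starting 187 and 19 bases before the start, and Snai1 held 1 copy, 126 bases before it. No CANNTG was found in these windows of Twist1, Twist2 and Vim or in the 4 windows of Zeb2. Of all 32851 promoters in the table, 20.2% held CAGGTG or CACCTG, 2.88% held 2 or more copies and 72.3% held a CANNTG. Krt8, the epithelial keratin described with Epcam further on, held 1 copy at 111 bases before its start, and its partner Krt18 held 1 at 214. The promoters of Epcam, Snai1 and Krt8 are shown as an epithelial gene with 2 matches, a factor gene with 1 and an abundant keratin with 1, with CAGGTG and CACCTG in capitals. They lie at chr17:87635729-87636028 (Epcam, plus strand), chr2:167537945-167538244 (Snai1, plus strand) and chr15:102004293-102004592 (Krt8, minus strand).
Epcam: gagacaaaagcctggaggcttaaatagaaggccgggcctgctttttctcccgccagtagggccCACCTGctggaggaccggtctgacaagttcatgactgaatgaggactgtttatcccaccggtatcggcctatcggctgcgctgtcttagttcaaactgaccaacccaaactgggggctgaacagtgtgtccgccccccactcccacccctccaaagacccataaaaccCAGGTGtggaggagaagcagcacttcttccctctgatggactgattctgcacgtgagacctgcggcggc
Snai1: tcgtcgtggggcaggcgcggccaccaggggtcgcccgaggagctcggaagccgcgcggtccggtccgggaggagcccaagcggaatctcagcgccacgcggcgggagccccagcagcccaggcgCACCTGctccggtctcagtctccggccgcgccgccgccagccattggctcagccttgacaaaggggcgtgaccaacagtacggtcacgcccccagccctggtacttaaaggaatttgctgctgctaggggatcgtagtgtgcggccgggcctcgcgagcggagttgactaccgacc
Krt8: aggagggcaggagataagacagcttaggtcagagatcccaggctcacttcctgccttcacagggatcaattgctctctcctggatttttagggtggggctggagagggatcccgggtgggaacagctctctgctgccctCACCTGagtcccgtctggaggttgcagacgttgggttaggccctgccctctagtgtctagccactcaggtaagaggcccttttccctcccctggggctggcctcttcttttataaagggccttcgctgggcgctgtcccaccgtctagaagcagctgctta
A match of letters is a description, and no binding was measured.

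The libraries held 19630319 to 25620667 reads over genes. Ngb, the gene the construct is named for, had 18, 19 and 11 reads in shNgb tumours, against 28, 23 and 13 in shVec tumours (log2 fold change -0.59, SE 0.42; edgeR adjusted p = 0.9997), and the groups overlapped. Of 15203 genes tested by edgeR's quasi-likelihood test, 0 passed an adjusted p of 0.05, the call used throughout. Without adjustment, 392 genes (2.58%) lay under 0.05. With limma-voom 0 genes were called and 410 (2.70%) lay under 0.05 unadjusted. DESeq2, over 27832 genes, called 5 (0.0180%), none of them among the 10, and had 477 (1.71%) under 0.05 unadjusted. Of 21 glioma and neural genes, 9 had at least 10 reads in every library and 4 (Olig1, Olig2, Aqp4 and Ptprz1) had none, and Gfap had 0 to 6 reads a library and S100b 2 to 6. Those with at least 10 reads in every library were Nes, Cspg4 and Cd44 (at least 5116 a library), Pdgfra (750 to 1578), Egfr (455 to 880), Sox2 (318 to 549), Tubb3 (230 to 696), Aldh1l1 (24 to 235) and Msi1 (10 to 199).

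By FPKM (reads scaled for gene length and library size, the authors' values), Vim was far above the 6 factors, and both cadherins were near 0. Vim, the filament protein of mesenchymal cells, had a mean of 1021 ± 45.6 FPKM over the 6 tumours (SD) and stood at rank 20 of 27834 genes with a value. Twist1 followed at 55.6 ± 5.93 FPKM, Snai1 at 23.3 ± 2.85, Snai2 at 12.01 ± 3.38, Zeb1 at 7.66 ± 0.862, Zeb2 at 4.33 ± 0.391 and Twist2 at 3.27 ± 0.634 FPKM. Epcam stood at 1.34 ± 0.765 FPKM, Cdh1 at 0.115 ± 0.0532 and Cdh2 at 0.0258 ± 0.0133. In this order the ranges over the 6 tumours overlapped in only 2 pairs of neighbours, Snai2 with Zeb1 and Zeb2 with Twist2. Within a tumour, Snai2 exceeded Zeb1 in all 6 (7.48 against 6.09 FPKM in shNgb replicate 3, its lowest). Zeb2 exceeded Twist2 except in shVec replicate 2 (4.04 against 4.20 FPKM), so that pair is not ranked. The ranges of all other neighbours were separate, by 18.4-fold between the means of Vim and Twist1 and 11.7-fold between those of Epcam and Cdh1.

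**Figure D1:**
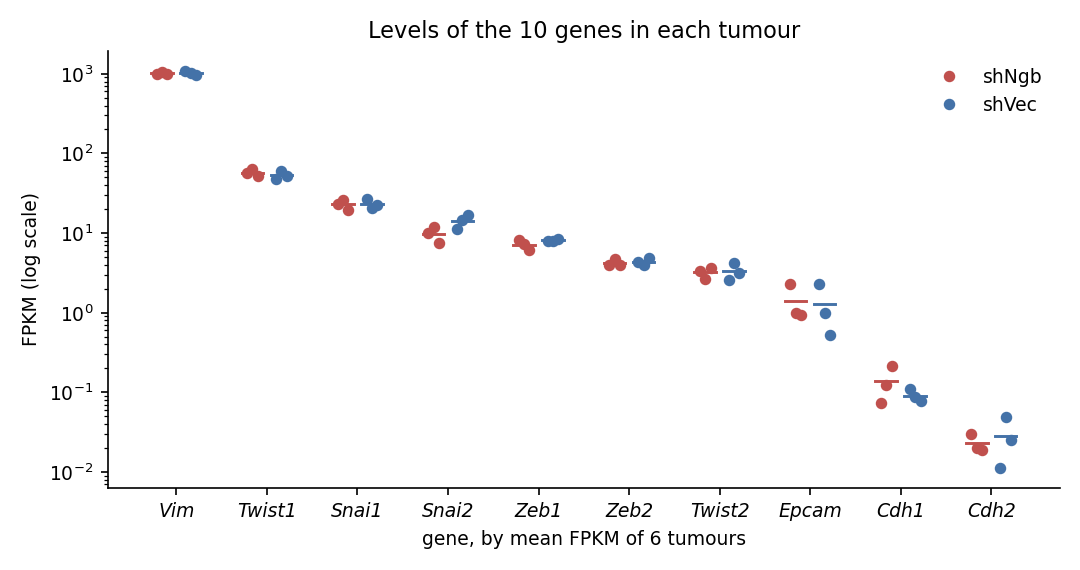
FPKM of the 10 genes (log axis) in 3 shNgb and 3 shVec tumours, 1 point per tumour, with a line at each group mean. Vim lies between 966 and 1097 FPKM, the 6 factors between 2.55 and 63.4 FPKM, and Cdh1 and Cdh2 below 0.22 FPKM, and in each gene the points of the 2 groups overlap.

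In the comparison of shNgb with shVec tumours, none of the 10 genes separated the groups. Of the 9 that passed the filter on low counts (Cdh2 did not), 0 passed edgeR's adjusted p, where the background was 0% of all genes, and 1, Snai2, had an unadjusted p under 0.05, in the lower direction, against 2.58% of all genes (1.35% higher and 1.22% lower). In 0 of the 10 genes did the 3 values of one group lie on one side of the other group's, against 7.10% of all tested genes (3.67% higher and 3.43% lower in shNgb). Log2 fold changes of the 9 (shNgb minus shVec) were positive in 3 and negative in 6, with a median of -0.02, beside 0.003 over all tested genes. What follows takes the genes by role, with levels in CPM (counts scaled to library size with TMM factors), which compares tumours within a gene and not genes with each other.

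**Figure D2:**
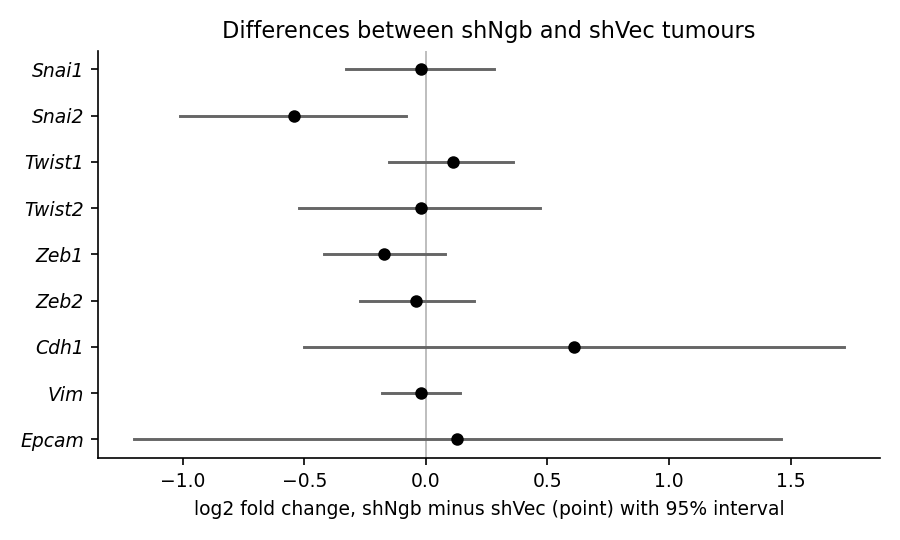
Log2 fold change, shNgb minus shVec (horizontal axis), of the 9 tested genes (rows), with 95% confidence intervals. Vim, Twist1, Zeb1 and Zeb2 have short intervals around 0, Cdh1 and Epcam have wide ones, and the interval of Snai2 runs from -1.01 to -0.08 before any adjustment for the number of genes.

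Snai1 (chromosome 2, 167538195 to 167542814, plus strand, GRCm38, as for all genes below) encodes Snail, the zinc finger repressor of Cdh1. It had 38.2, 42.5 and 32.2 CPM in shNgb tumours, against 43.9, 33.7 and 37.1 CPM in shVec tumours. The highest and the second highest tumour came from different groups, and the values mixed throughout. For Snai1 the fold of shNgb over shVec was 0.985 (95% interval 0.797 to 1.22), or -0.02 on the log2 scale (SE 0.13; edgeR adjusted p = 0.9997).

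Snai2 (chromosome 16, 14705852 to 14709385, plus strand) encodes Slug, the second SNAIL repressor, known from neural crest and wound edges. It had 20.2, 24.2 and 15.3 CPM in shNgb tumours, against 22.6, 30.0 and 34.3 CPM in shVec tumours. Among the 9 genes it showed the lowest p, with 2 of 3 shVec tumours above every shNgb tumour and shVec replicate 1 inside the shNgb range. The means were 19.9 ± 4.48 CPM in shNgb and 29.0 ± 5.95 CPM in shVec (SD, n = 3 each). The log2 fold change was -0.54 (SE 0.20), and the edgeR p was 0.0270 unadjusted and 0.9997 adjusted, so Snai2 is not called. The value ranged from -0.38 without shNgb replicate 3 to -0.71 without shNgb replicate 2.

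Expressed against Snai2 in the same tumour, which needs no library scaling, Snai1 was the more abundant by FPKM in all 6. The FPKM ratio of Snai1 over Snai2 was 2.36, 2.19 and 2.63 in shNgb tumours, against 2.43, 1.397 and 1.35 in shVec tumours. Again shVec replicate 1 lay with the shNgb tumours. The log2 ratio differed by 0.52, and a two-sided exact permutation test gave p = 0.3 (0.6 adjusted over the 3 family pairs compared; 3 against 3 allows no p under 0.1).

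By the likeness rule, 3 genes of at least 5 CPM came closest to Snai2 over the 6 tumours among 9945 candidates. They were Nfil3, a leucine zipper repressor (root mean square difference 0.07 on the centred log2 CPM scale), Adamts1, a secreted metalloprotease (0.093), and Fosl2, an AP-1 subunit (0.118). Nfil3 had 49.6, 52.4 and 36.5 CPM in shNgb tumours, against 48.5, 68.5 and 76.3 CPM in shVec tumours. Being high in the same 2 shVec tumours as Snai2 follows from the rule, which picked on these same values. Whether likeness this close exceeds what 9945 candidates give without any link was not tested. For Twist2, the other gene the rule took, the closest were Snora57 (0.053), Atp2a2 (0.072) and Foxn2 (0.074).

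Twist1 (chromosome 12, 33957671 to 33959829, plus strand) encodes a basic helix-loop-helix factor of mesoderm and neural crest that is often high in gliomas. It had 94.1, 105 and 85.0 CPM in shNgb tumours, against 77.9, 99.2 and 86.3 CPM in shVec tumours. The lowest tumour was shVec and the highest shNgb, with the other values interleaved, and the log2 fold change was 0.11 (SE 0.11, 95% interval -0.15 to 0.36; edgeR adjusted p = 0.9997). By FPKM it was the leading factor of the 6 in every tumour. It made up 54.0%, 54.8% and 55.8% of their summed FPKM in shNgb tumours, against 47.5%, 54.0% and 48.5% in shVec tumours, so that the groups nearly touched (53.98% the lowest in shNgb, 53.96% the highest in shVec) without overlap.

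Twist2 (chromosome 1, 91801461 to 91848028, plus strand), its close relative in dermis and bone, had 10.8, 8.43 and 11.8 CPM in shNgb tumours, against 8.11, 13.4 and 10.1 CPM in shVec tumours. Both extremes were shVec tumours, and the log2 fold change was -0.02 (SE 0.22; edgeR adjusted p = 0.9997). The antisense gene Gm29100 shares 1477 exon bases with Twist2 and had 27 to 64 reads a library. Whether the libraries kept strand is not established here, and the counter is not given. How reads of the shared bases were assigned to each gene is thus not known. The FPKM ratio of Twist1 over Twist2 was 17.0, 24.2 and 14.0 in shNgb tumours, against 18.7, 14.4 and 16.6 in shVec tumours (difference of log2 ratios 0.12, exact permutation p = 0.8, 0.8 adjusted).

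**Figure D3:**
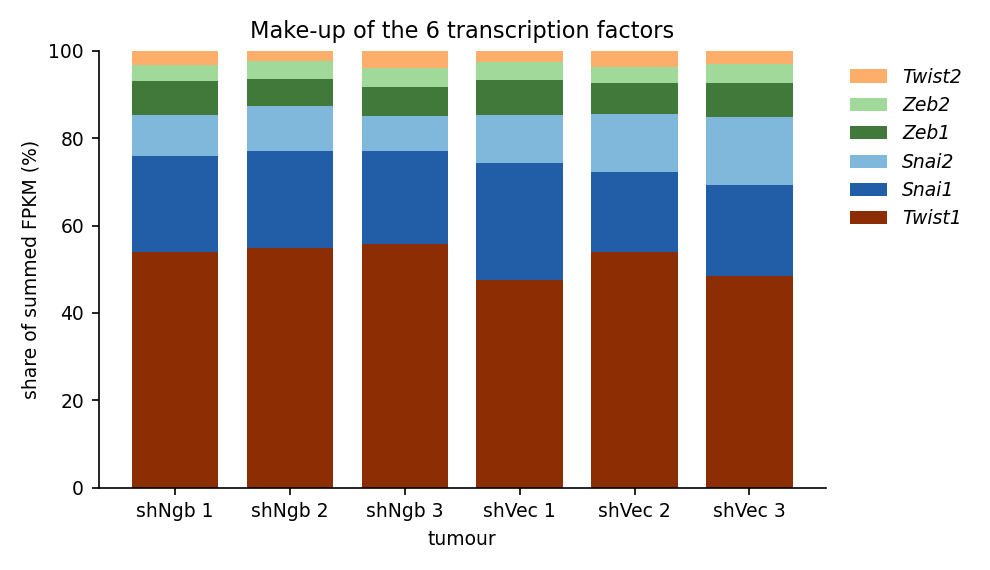
Share of each factor in the summed FPKM of the 6 EMT transcription factors (vertical axis, percent) in each tumour, with shNgb tumours on the left and shVec on the right. Twist1 takes 54.0% to 55.8% in shNgb and 47.5% to 54.0% in shVec tumours, Snai2 takes 8.07% to 10.2% in shNgb and 11.1% to 15.5% in shVec tumours, and Snai1 takes 18.4% to 26.8% over all 6.

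The share of Snai2 among the 6 factors was 9.34%, 10.2% and 8.07% in shNgb tumours, against 11.1%, 13.2% and 15.5% in shVec tumours. Like those of Twist1, these values do not overlap, while the CPM values of both genes do. The shares of Snai1, Twist2, Zeb1 and Zeb2 overlapped between groups. By CPM, 7.10% of all tested genes did not overlap, and no such background was computed for shares. The shares were looked at after the CPM values were seen, and shares sum to a whole, so each moves with the other 5 factors, and no test is given.

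Zeb1 (chromosome 18, 5591860 to 5775467, plus strand) encodes a zinc finger and homeodomain repressor that is held down by miR-200 in epithelia. It had 84.8, 75.4 and 63.1 CPM in shNgb tumours, against 81.6, 82.9 and 86.6 CPM in shVec tumours. The shVec tumours lay close together, while 2 of 3 shNgb tumours were below them and shNgb replicate 1 was among them. The means were 74.4 ± 10.9 and 83.7 ± 2.63 CPM in shNgb and shVec tumours (SD, n = 3 each), with a log2 fold change of -0.17 (SE 0.11; edgeR adjusted p = 0.9997). It was -0.28 without shNgb replicate 1 and -0.07 without shNgb replicate 3.

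Zeb2 (chromosome 2, 44983632 to 45117395, minus strand), also called SIP1, works in neural crest and in myelination and is used by macrophages and NK cells as well. It had 80.1, 96.4 and 81.0 CPM in shNgb tumours, against 85.7, 80.9 and 97.3 CPM in shVec tumours, with a log2 fold change of -0.04 (SE 0.10, 95% interval -0.27 to 0.20; edgeR adjusted p = 0.9997). The groups covered nearly the same range. Antisense transcripts overlap both ZEB genes, Gm10125 on 198 of Zeb1 (26 to 43 reads) and Zeb2os on 653 of Zeb2 (5 to 17 reads). In bulk tumours, fewer cells of a type and less RNA per cell cannot be told apart. Macrophage markers (13 of 13 tested, all with a positive log2 fold change and 0 called) summed to 162 to 382 CPM in shNgb and 124 to 272 CPM in shVec tumours. T and NK cell markers (12 of 15 tested, all positive, 0 called) summed to 5.11 to 54.9 and 4.99 to 27.1 CPM in shNgb and shVec. Their part in the Zeb2 level was not tested. The FPKM ratio of Zeb1 over Zeb2 was 2.06, 1.52 and 1.51 in shNgb tumours, against 1.85, 1.99 and 1.73 in shVec tumours (difference of log2 ratios -0.14, exact permutation p = 0.4, 0.6 adjusted).

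Cdh1 (chromosome 8, 106603351 to 106670246, plus strand) encodes E-cadherin, the adhesion protein of epithelial junctions. It had 7, 14 and 26 reads in shNgb tumours, against 11, 8 and 7 in shVec tumours, or 0.637 ± 0.334 and 0.420 ± 0.0739 CPM (SD, n = 3 each). One tumour, shNgb replicate 3, stood above the rest. The log2 fold change was 0.61 (SE 0.49, 95% interval -0.50 to 1.72; edgeR adjusted p = 0.9997), and 0.12 without that tumour. Over all libraries 47 shNgb reads stood against 26 shVec reads, a rate ratio of 1.56 (95% exact interval 0.947 to 2.63, counting error only). The same tumour had the highest summed level of macrophage markers (382 CPM), T and NK cell markers (54.9 CPM) and dendritic and Langerhans cell markers (235 CPM). The last sum was 54.1 and 153 CPM in the other shNgb tumours and 53.7 to 102 CPM in shVec. Cd74 alone made up 183 of the 235 CPM. Cd207, the defining Langerhans marker, had 0 reads in all 6 libraries, and the part of these cells in the Cdh1 reads was not tested.

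Cdh2 (chromosome 18, 16588877 to 16809246, minus strand) encodes N-cadherin, the adhesion protein of neurons, glia and mesenchyme that textbook EMT brings in. It had 5, 4 and 4 reads in shNgb tumours, against 2, 8 and 4 in shVec tumours, 13 against 14 in all. That is a rate ratio of 0.802 (95% exact interval 0.347 to 1.84, counting error only), too few reads for the test across genes. By mean FPKM over the 6 tumours, Cdh1 exceeded Cdh2 by 4.44-fold, and their ranges did not overlap.

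Other cadherins carried what cadherin RNA there was. Of 20 cadherins (Cdh1, Cdh2 and a list of 18), Cdh24 led with 48.6% to 73.4% of the summed FPKM of a tumour, and Cdh5, the endothelial cadherin, chosen after its values were seen, took 16.8% to 32.03%. Cdh1 took 0.344% to 1.69% and Cdh2 0.0534% to 0.297%. Cdh24, a type II cadherin, had 39.1, 49.2 and 21.8 CPM in shNgb tumours, against 48.0, 38.6 and 54.4 CPM in shVec tumours (log2 fold change -0.36, SE 0.29; edgeR adjusted p = 0.9997). Cdh11, the mesenchymal cadherin, had 8.05, 2.92 and 7.17 CPM in shNgb tumours, against 4.74, 2.92 and 2.65 CPM in shVec tumours (0.81, SE 0.40). Of the 5 tested cadherins on the list, log2 fold changes were above 0 in 1 and below 0 in 4 (median -0.23), and 0 were called. The endothelial markers summed to 216 to 230 CPM in shNgb and 214 to 237 CPM in shVec tumours.

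**Figure D4:**
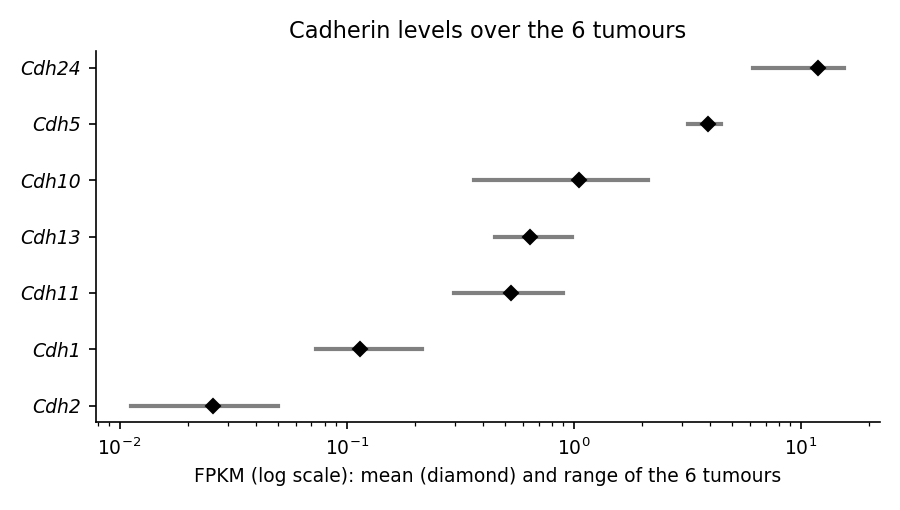
FPKM (log axis) of the 5 cadherins that passed the count filter beside Cdh1 and Cdh2, with the mean (diamond) and the range of all 6 tumours (line). Cdh24 has a mean of 11.9 FPKM, Cdh5 3.92, Cdh1 0.115 and Cdh2 0.0258, and the range of Cdh1 lies below those of the 5 others.

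Of the catenins, which tie cadherins to actin, Ctnnb1 and Ctnna1 exceeded the summed cadherins by FPKM. Ctnnb1 (beta-catenin, also a WNT effector) had a mean of 110.1 FPKM and Ctnna1 (alpha-catenin) 106 FPKM over the 6 tumours, against 18.4 FPKM for the 20 cadherins summed and 0.115 FPKM for Cdh1. Of 12 tested catenins and partners, 6 were positive and 6 negative, with a median log2 fold change of 0.00 and 0 called. Vcl (vinculin), which did not overlap between groups, stood at 194 ± 8.69 CPM in shNgb and 215 ± 7.90 CPM in shVec tumours (log2 fold change -0.15, SE 0.07), and it was the 1 of 12 that did not overlap (8.33%, against 7.10% of all tested genes).

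Vim (chromosome 2, 13573927 to 13582826, plus strand) had 4729, 5009.7 and 4792 CPM in shNgb tumours, against 5220.2, 4898 and 4607 CPM in shVec tumours. It was the steadiest of the 9 tested genes: the SD of log2 CPM over the 6 tumours was 0.064, beside a median of 0.177 over all tested genes. That median was not matched for level, and Vim had 90504 to 125052 reads a library. The log2 fold change was -0.02 (95% interval -0.18 to 0.14; edgeR adjusted p = 0.9997), so the interval of the fold, 0.884 to 1.10, leaves room for small differences in either direction. Among 9 other filament genes tested, 3 were positive and 6 negative (median -0.26, 0 called). Nes (nestin, the progenitor filament that pairs with vimentin) had 439, 383 and 419.7 CPM in shNgb tumours, against 477, 545 and 496 CPM in shVec tumours. Those values did not overlap (log2 fold change -0.29, SE 0.08, edgeR adjusted p = 0.9997). Nes, which had the lowest p of the list, was the 1 of 9 without overlap (11.1%, against 7.10% of all tested genes). Lmna, the most abundant, had a log2 fold change of 0.00 (SE 0.11).

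Epcam (chromosome 17, 87635979 to 87651129, plus strand) encodes an epithelial adhesion protein. It had 4.68, 2.06 and 1.92 CPM in shNgb tumours, against 4.74, 2.02 and 1.07 CPM in shVec tumours, from 21 to 104 reads. Replicate 1 of each group stood above all other tumours, and replicates 2 and 3 of both groups lay lower. This made Epcam the most variable of the 9 tested genes, with an SD of log2 CPM of 0.801 over the 6 tumours. The upper quartile over all tested genes was 0.355, not matched for level. The log2 fold change was 0.13 (SE 0.57, 95% interval -1.20 to 1.46; edgeR adjusted p = 0.9997), and it was -0.40 without shNgb replicate 1. Leaving out a shVec tumour gave 0.89 (replicate 1), -0.03 (replicate 2) or -0.24 (replicate 3).

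The simple-epithelium keratins Krt8 and Krt18 were high in the same tumours as Epcam. Krt8, which pairs with Krt18, had 217, 142 and 168 CPM in shNgb tumours, against 309.9, 175 and 159 CPM in shVec tumours. Krt18 had 91.1, 68.1 and 69.8 CPM in shNgb tumours, against 126, 65.6 and 58.2 CPM in shVec tumours, and Cldn4, a tight junction claudin, 3.81, 2.67 and 0.920 CPM against 4.05, 1.97 and 1.88 CPM. In Epcam and these 3 genes replicate 1 was the highest of its group, and this was not general to the list. Of the 15 tested junction and keratin genes, 5 had replicate 1 highest in both groups (33.3%), against 12.1% of all tested genes. Pkp3 (plakophilin 3), picked after its values were seen, had replicate 1 lowest in shNgb, with 27.8, 35.1 and 34.3 CPM, against 36.5, 31.2 and 36.1 CPM in shVec tumours. By FPKM, Krt8 (99.1 over the 6 tumours) exceeded Twist1 (55.6). Krt18 and Cldn4 were picked after their values were seen. Of 16 epidermal markers, 5 had no reads, Krt5, Krt1 and Krt6a among them, and Trp63 had 1 read in all. Another 5 passed the count filter, among them Krt10 with 96 to 132 reads a library. The 16 markers summed to 18.9 to 23.1 CPM in shNgb and 20.8 to 22.9 CPM in shVec tumours.

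**Figure D5:**
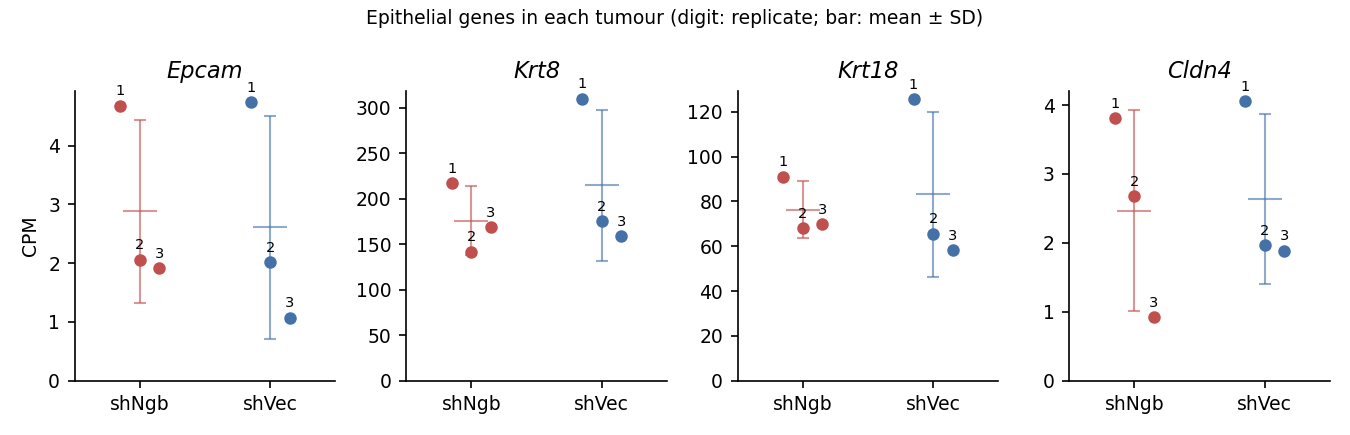
CPM of Epcam, Krt8, Krt18 and Cldn4 in shNgb (left) and shVec (right) tumours of each panel, 1 point per tumour with its replicate number, and the mean with its SD. Replicate 1 is the highest point of its group in each panel, Krt18 and Cldn4 having been picked after their values were seen (5 of 15 tested genes of the junction and keratin list share this), and the groups overlap in all 4 genes.

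Of 30 epithelial junction and keratin genes, 15 had reads enough to be tested. Of these 7 were positive and 8 negative, with a median log2 fold change of -0.03 and 0 called, and 2 did not overlap between groups (13.3%, against 7.10% of all tested genes). Those 2 were scarce tight junction genes: Ocln (occludin) had 13, 15 and 24 reads in shNgb tumours, against 2, 8 and 1 in shVec tumours, and Cldn1 (claudin 1) 21, 14 and 14 reads against 6, 7 and 7. Their log2 fold changes were 1.98 (SE 0.65) and 1.09 (SE 0.45), with an edgeR adjusted p of 0.9997 each. Jup (plakoglobin), a junction protein, was at 45.8 CPM in shNgb replicate 3, against 186 and 185 CPM in the other shNgb tumours and 113 to 187 CPM in shVec tumours, and was picked after its values were seen.

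Factors that keep cells epithelial ranged from no reads to 779 a library. Of 15 such genes, Esrp1, Ovol2, Grhl3, Ehf and Cdx2 had no read in any library, and 5 could be tested (4 positive, 1 negative, median log2 fold change 0.09, 0 called). Klf5, a factor of basal and gut epithelium, had 681 to 779 reads in shNgb and 745 to 751 in shVec tumours. It stood at 30.7 ± 3.28 CPM in shNgb and 36.7 ± 2.36 CPM in shVec tumours (SD, n = 3 each; log2 fold change -0.25, SE 0.11), and its groups overlapped. Foxa1, a pioneer factor of endoderm and gland epithelium, had 290 to 373 reads in shNgb and 166 to 397 in shVec tumours. Grhl2, a grainyhead factor that opposes Zeb1 in epithelia and was picked after its values were seen, had 25 to 58 reads in shNgb and 17 to 48 reads in shVec tumours.

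Further EMT-linked factors did not separate the groups either. Of 20 on the list 17 were tested, 6 positive and 11 negative, with a median log2 fold change of -0.11, and 0 were called or free of overlap. By mean FPKM the AP-1 subunit Fosl1 (74.6) and the E protein Tcf3 (73.8), both picked after their values were seen, stood above Twist1 (55.6). Tcf12, an E protein that pairs with TWIST factors, had 20.2 FPKM and stood at 313 ± 46.0 CPM in shNgb and 318 ± 12.8 CPM in shVec tumours. Sox9, a neural crest and cartilage factor, stood at 147 ± 45.1 and 210.0 ± 39.2 CPM in shNgb and shVec (log2 fold change -0.51, SE 0.25), and Foxc2, a mesenchyme factor, at 58.3 ± 11.3 and 70.4 ± 5.66 CPM (-0.27, SE 0.14). Corepressors and enzymes that act on SNAIL and ZEB proteins had 26 tested genes, 8 positive and 18 negative, a median of -0.04 and 0 called. Their lowest p was that of Rcor1, a corepressor of the LSD1 complex that SNAIL recruits (141 ± 10.9 CPM in shNgb, 156 ± 9.37 CPM in shVec, log2 fold change -0.14, SE 0.08).

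Mesenchymal and matrix genes also gave no call. All 24 were tested, 10 positive and 14 negative, with a median log2 fold change of -0.06 and 0 called, and 4 did not overlap (16.7%, against 7.10% of all tested genes). Itga5, the fibronectin receptor subunit, had 597, 525 and 482 CPM in shNgb tumours, against 699, 677 and 679 CPM in shVec tumours (log2 fold change -0.36, SE 0.09; edgeR adjusted p = 0.9997). Its ligand Fn1 (fibronectin) had 2063, 2736 and 1205 CPM in shNgb tumours, against 3083, 2071 and 2874 CPM in shVec tumours, which overlapped. The fourth without overlap was Itgb1, the partner of Itga5, at 1594 ± 49.9 CPM in shNgb and 1660 ± 41.9 CPM in shVec (-0.06, SE 0.06). Col1a1 (the main chain of type I collagen) had 354, 210 and 281 CPM in shNgb tumours, against 197, 139 and 130 CPM in shVec tumours, also with no overlap (0.86, SE 0.23; edgeR adjusted p = 0.9997). Acta2 (smooth muscle actin) stood at 12.8 ± 1.68 CPM in shNgb and 9.92 ± 1.07 CPM in shVec, with no overlap (0.37, SE 0.16). Fibroblast markers, 8 of 12 tested, had 7 positive and 1 negative log2 fold changes (median 0.55, 0 called). Of the 8, Col1a1 and Mfap5 did not overlap, both higher in shNgb. The unadjusted edgeR p lay under 0.05 in 3, all higher, against 2.58% of all tested genes in either direction. The markers summed to 1142 to 2393 CPM in shNgb and 1652 to 1972 CPM in shVec tumours. Most of each sum was Col3a1, the 1 gene with a negative log2 fold change (-0.22). It had 605 to 1666 CPM in shNgb and 1345 to 1582 CPM in shVec tumours. The part of fibroblasts in the Vim or Twist levels was not tested.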

How the data were processed

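The 10 genes and all gene lists were chosen with earlier results of these data known. Per the labels' protocols, total RNA came from Trizol extraction and an Illumina TruSeq RNA kit made the libraries. The submitters' processing notes name Bowtie 0.12.2 and 2 builds, mm8 and mm10, with no role; no source used here gives the counter or annotation. The authors deposited raw read counts per Ensembl gene and, per the file headers, FPKM values for each tumour. In 11113 genes with over 50 reads in every library, FPKM equalled the count divided by a gene and a library factor to a relative deviation of at most 5.3e-09, so FPKM was used only for levels between genes and for ratios.

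GENCODE M21 (GRCm38) gave symbols, positions and exons. The deposited counts went into edgeR 4.0.16 under R 4.3.3 (default expression filter, TMM, robust quasi-likelihood F-test, Benjamini-Hochberg over 15203 genes, threshold 0.05). SEs derive from the F statistic. Alternatives were RLE and upper quartile scaling, other filters, DESeq2 1.42.0, voom from limma 3.58.1, a block on the replicate number, a threshold of 0.1 and leaving out each library. The pipeline was also run on simulated data with known changes, and how many of them it recovered is not given here. The naming rule took all 10 genes and, from each list, the 4 genes of lowest p and the most abundant. Likeness was measured for the 2 genes of at least 5 CPM that varied most. Copies were sought with blastn 2.17.0 (95% identity over 250 bases, both strands). The only match was Gm29100 for Twist2, which is the overlapping antisense gene and not a separate copy, and the other 9 had none. The ratio of Cdh1 to Cdh2 was not tested, since Cdh2 did not pass the filter. The 11 marker lists are described by sums. Skeletal muscle markers summed to 7.09 to 9.05 CPM in shNgb and 8.38 to 24.6 in shVec. Adipocyte markers summed to 3.60 to 4.77 and 3.69 to 4.07, and Schwann cell markers to 8.01 to 10.1 and 9.62 to 11.1. Pericyte and smooth muscle markers summed to 347 to 484 and 409 to 479. Most of these last sums was Cspg4 (253 to 305 CPM in shNgb, 290 to 327 in shVec), which is also on the glioma and neural list.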

Additional observations from a re-analysis of the deposited data

How the results depend on the processing

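Over the 62 values of the 9 genes under RLE, upper quartile, both other filters, DESeq2, limma-voom and the replicate block, 0 changed sign and 0 passed an adjusted p of 0.05; the strict filter left Cdh1 out. Leaving out 1 library turned the sign in 11 of 54 fits. The log2 fold changes then ranged from -0.12 to 0.09 (Snai1), -0.71 to -0.38 (Snai2), 0.03 to 0.20 (Twist1), -0.19 to 0.18 (Twist2), -0.28 to -0.07 (Zeb1), -0.13 to 0.04 (Zeb2), 0.12 to 0.89 (Cdh1), -0.07 to 0.03 (Vim) and -0.40 to 0.89 (Epcam). Differences of log2 ratios ranged from 0.38 to 0.80 (Snai1 over Snai2), -0.10 to 0.30 (Twist1 over Twist2) and -0.29 to -0.07 (Zeb1 over Zeb2), an alternative chosen after seeing the data. Over all genes, calls were 3 with no filter beyond 1 read, 5 in DESeq2 and 1 under the replicate block, against 0 with all other settings; none was 1 of the 10, and the cause was not tested. Deviations of same-numbered tumours correlated across genes at 0.257, -0.145 and -0.099. The shNgb replicate 1 tumour correlated best with shVec replicate 1. By contrast, shNgb replicate 2 correlated best with shVec replicate 3 (0.172), and shNgb replicate 3 with shVec replicate 2 (0.327). Pairing was thus not seen over all 3 numbers, and whether the replicate 1 tumours shared their handling was not tested. The order of the 10 genes was the same by CPM per kilobase of exon, and list medians moved by less than 0.1 with scaling. Depth limits Cdh1 and Cdh2, with at most 26 and 8 reads a library.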
